A study of Mus musculus with 8 samples.

Results

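CD98 heavy chain (CD98hc), encoded by Slc3a2, and 8 carriers of neutral, cationic or anionic amino acids were examined in single-cell transcriptomes of colonic monocytes and macrophages. The members were the rows of the UMI count table for Slc3a2, for its light chains Slc7a5, Slc7a6, Slc7a7, Slc7a8 and Slc7a11, and for the carriers Slc1a5, Slc38a2 and Slc43a2. They make up 9 of the 16889 genes of the table, they were chosen by name, and all 9 passed the filter on low counts.

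CD98hc crosses the plasma membrane once and does not carry amino acids itself. It is joined by a disulfide bond to one of several light chains, which form the pore and decide what is transported, and it brings the light chain to the cell surface. The light chains exchange one amino acid for another, so that leucine, other neutral amino acids or cystine enter while glutamine, arginine or glutamate leave. Leucine taken up in this way is sensed by the kinase complex mTORC1, and a shortage of amino acids induces several of these carriers through the transcription factor ATF4.

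The cells came from the colonic lamina propria of 8 female CD98hcΔCX3CR1 littermates, which all carried floxed CD98hc alleles and the Cx3cr1 CreER-YFP allele. The 4 control mice were injected with corn oil and the 4 cKO mice with tamoxifen (100 µl at 20 mg/ml) on 5 consecutive days, and cells were taken on day 7. Tamoxifen was given to the cKO mice only, so effects of the drug and of the deletion cannot be told apart. Cre was driven by the Cx3cr1 promoter, so the deletion was aimed at cells that used this promoter during the injections. Levels on day 7 need not show which cells these were. Cells with surface CD11b and either CCR2 or CD64 were sorted and 1 library was made per mouse on the same day, with no other batch named.

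After the cell filters 3213 cells remained, 1863 from control and 1350 from cKO mice, with 497531 to 3762314 UMIs per mouse. Control replicate 3 and cKO replicate 5 were small libraries of 85 and 83 cells, and Scrublet called 24 doublets in cKO replicate 5 against 2 to 16 in the other libraries. The barcodes in the table were replaced by running codes, so barcodes shared between libraries could not be counted. Of the 9 clusters built without the members, 6 were named by markers, namely a monocyte-like cluster (466 cells), macrophage-like clusters of 464 and 246 cells, a dendritic cell-like cluster (527 cells), a lymphoid-like cluster (180 cells) and a stromal-like cluster (86 cells). Cluster 1 (602 cells, led by Ccl24 and Sirpb1c), cluster 5 (374 cells, led by Cebpb, Ier5 and Jund) and cluster 6 (268 cells, led by Il1a, Acod1, Arg1 and Saa3) stayed unnamed. The macrophage-like cluster of 246 cells, cluster 7, held cells with little RNA, at 0.236 times the median UMI count of their own mouse. Cluster 5 was also low, at 0.405 times this count. Itgam encodes CD11b, the marker of the sort, and was close to absent from the lymphoid-like (3.80 unscaled counts per 1000000 UMIs, CPM) and stromal-like clusters (4.70 CPM), whereas the monocyte-like cluster had 206 CPM.

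Slc3a2 (ENSMUSG00000010095) lies on the minus strand of chromosome 19 of GRCm38 (mm10), at chr19:8706882-8723369. The floxed part is described as exon 3, and the exon that carries this number differs between transcripts of the GENCODE annotation. In transcript Slc3a2-202 exon 3 is chr19:8712730-8712903, with 174 coding bases and no remainder on division by 3, whereas in Slc3a2-201 exon 3 is chr19:8711834-8711928, with 95 coding bases and a remainder of 2. These are the 2 longest transcripts, and some shorter transcripts give the number to an exon further downstream, which is not shown. Both exons are given in the 5′ to 3′ direction of the transcript, since they mark where the deletion lies relative to the reads.
Slc3a2-202 exon 3: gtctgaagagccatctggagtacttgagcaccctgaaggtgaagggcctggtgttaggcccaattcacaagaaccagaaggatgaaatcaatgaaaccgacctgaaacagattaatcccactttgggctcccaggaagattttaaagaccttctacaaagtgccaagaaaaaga
Slc3a2-201 exon 3: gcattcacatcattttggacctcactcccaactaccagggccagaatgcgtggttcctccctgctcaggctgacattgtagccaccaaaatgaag
The first exon ends 1842 bases before the 3′ end of its transcript and the second 1012 bases before it. The 3′ libraries count molecules near the 3′ end, outside either exon, so the UMI count of Slc3a2 does not check the deletion and need not fall with the protein.

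Levels are CPM scaled by the TMM factors of the fits unless called unscaled. Over all cells of a mouse Slc3a2 stood at 345, 251, 233 and 472 CPM in control replicates 1 to 4 and at 296, 369, 346 and 315 CPM in cKO replicates 5 to 8. The cKO mice lay within the range of the control mice, and the control mice spread more widely, with 325 ± 109 CPM against 331 ± 32.7 CPM (mean ± SD, n = 4 each). The log2 fold change, cKO over control, was 0.022 ± 0.21 (SE; edgeR quasi-likelihood adjusted p = 0.976). In sums over all cells, a change in the number of cells of a type and a change in RNA per cell cannot be told apart. The 10 monocyte markers summed to 2019 to 3713 CPM in the control and 7979 to 13034 CPM in the cKO mice. The 18 macrophage markers found of 19 (Sepp1 was not) summed to 11795 to 23864 and 10688 to 17559 CPM. Monocyte-like cells made up 2.35% to 9.11% of the cells of a control and 19.3% to 29.1% of those of a cKO mouse, and the macrophage-like cluster of 464 cells made up 9.11% to 30.5% and 4.55% to 15.7%. The part of these shifts in the changes over all cells was not tested. Without the dendritic cell-like, lymphoid-like and stromal-like clusters the log2 fold change was -0.36, with an adjusted p of 0.362, and it was below 0 also without Scrublet calls (-0.070).

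**Figure D1:**
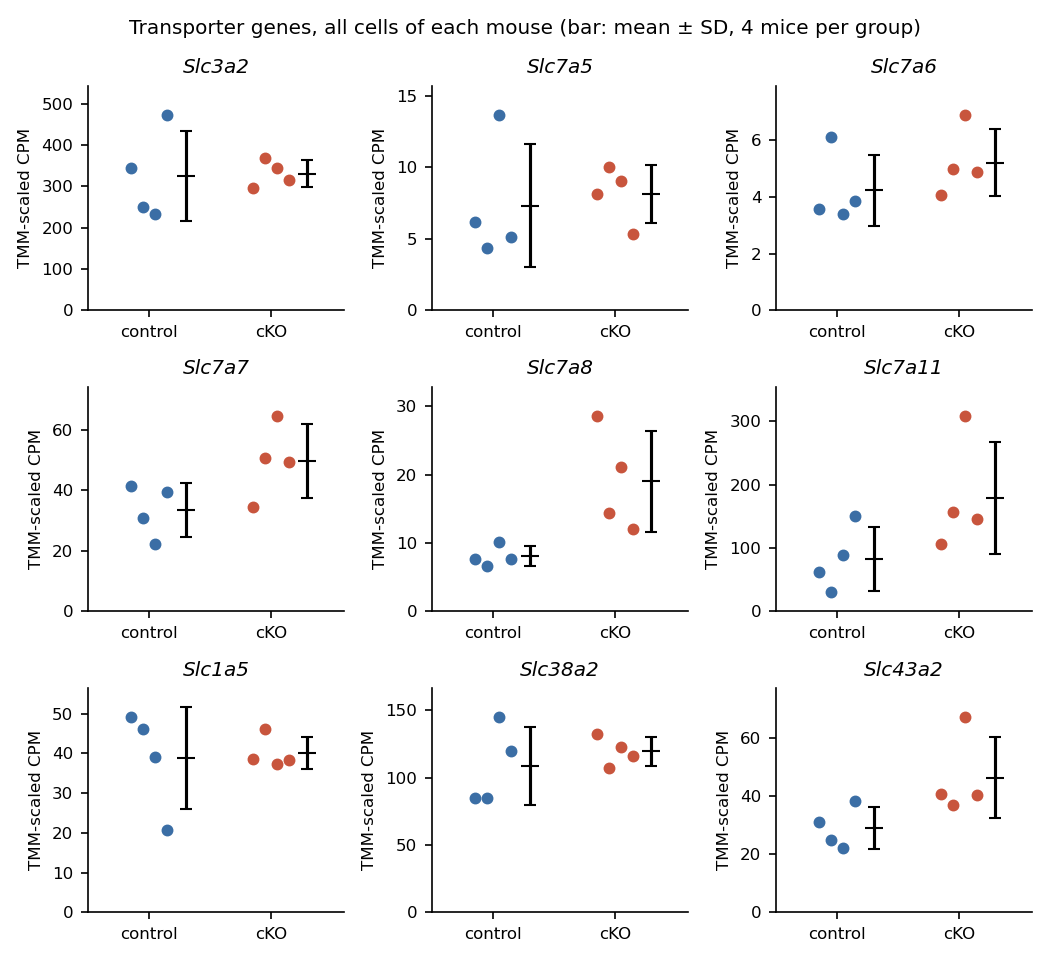
Level of each of the 9 genes in all cells of each mouse, in TMM-scaled CPM on axes that start at 0; points are mice in replicate order, and the bar gives the mean ± SD of 4 mice. The 4 cKO mice lie above all control mice for Slc7a8 only, at 12.01 to 28.5 CPM against 6.68 to 10.2 CPM.

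The level of Slc3a2 differed among the clusters. It was highest in the lymphoid-like cluster, at 820 ± 251 CPM (SD, n = 6 mice with at least 20 cells). It followed at 494 ± 242 CPM in cluster 6 (n = 4), 472 ± 161 CPM in cluster 1, 347 ± 57.5 CPM in the monocyte-like and 337 ± 48.0 CPM in the macrophage-like cluster (n = 6 each). It stood at 309 ± 77.4 CPM in cluster 5 (n = 6), 230 ± 90.6 CPM in the dendritic cell-like cluster (n = 7) and 83.1 ± 43.5 CPM in cluster 7 (n = 6), and at 82.4 CPM in the 1 stromal-like sum. The lymphoid-like cluster was above cluster 6 in 4 of 4 mice, cluster 1 was above the monocyte-like cluster in 6 of 6 mice, and the dendritic cell-like cluster was above cluster 7 in 6 of 6 mice. The other neighbours in this order had a mean difference within mice below its SD, except for the stromal-like cluster, whose 1 sum gave no SD. Against the monocyte-like cluster, with the mouse as a term, Slc3a2 was higher in the lymphoid-like cluster by 1.24 ± 0.17 on the log2 scale (SE; edgeR adjusted p = 3.76e-09) and lower in the dendritic cell-like cluster, with -0.52 ± 0.17 (adjusted p = 0.0132), and in cluster 7, with -1.98 ± 0.28 (adjusted p = 1.93e-08). Cluster 1 did not pass in this fit, with 0.41 ± 0.17 (adjusted p = 0.125), nor did cluster 6, with 0.44 ± 0.19 (adjusted p = 0.174). The macrophage-like cluster of 464 cells differed from the monocyte-like cluster by -0.046 (adjusted p = 0.895), a value that was above 0 with DESeq2 (0.12) and under both other clusterings. Against this cluster, genes passed in 8.2% (cluster 1), 31.3% (dendritic cell-like), 22.3% (macrophage-like), 12.2% (cluster 5), 8.09% (cluster 6), 19% (cluster 7), 31.2% (lymphoid-like) and 17.4% (stromal-like) of 11088 tests. Of the 9 members 1, 6, 2, 0, 1, 5, 5 and 4 passed in these 8 comparisons, in the same order. The stromal-like comparison rests on 1 sum from 1 mouse.

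**Figure D2:**
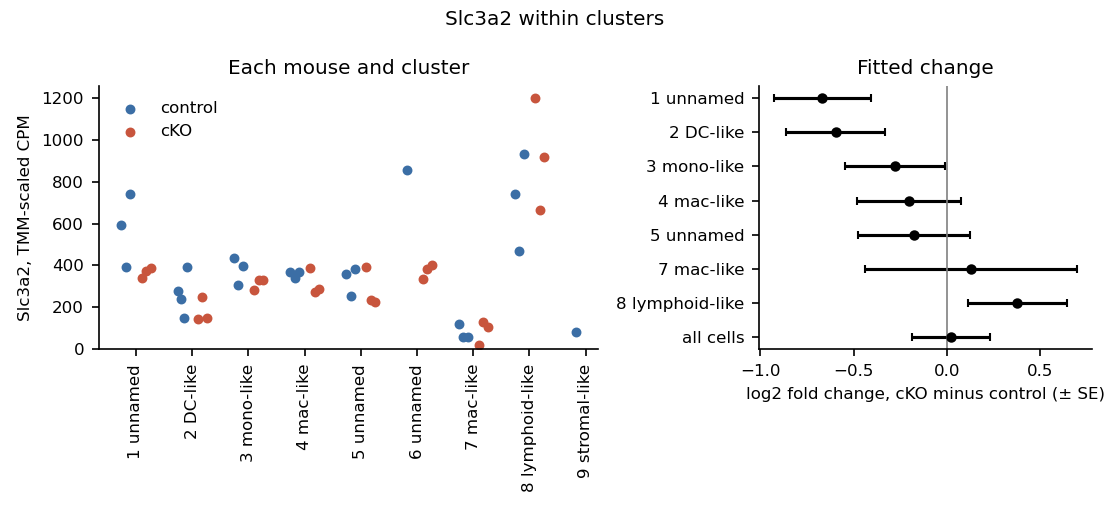
Left, Slc3a2 in TMM-scaled CPM for each mouse and cluster with at least 20 cells, control and cKO side by side; right, the fitted log2 fold change, cKO over control, with its SE in the 7 clusters that had at least 2 mice per condition and over all cells. The fitted change is below 0 in 5 of 7 clusters and runs from -0.67 in cluster 1 to 0.38 in the lymphoid-like cluster, and no cluster passed the threshold.

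Within clusters, the change of Slc3a2 did not pass the threshold in any of the 7 clusters that could be tested. The share of 11088 genes called was 1.2% in cluster 1, 0.189% in the dendritic cell-like, 0.388% in the monocyte-like, 0.433% in the macrophage-like cluster, 0.0361% in cluster 7, and 0.0631% in both the lymphoid-like cluster and cluster 5. In cluster 1 the 3 control mice stood at 595, 393 and 742 CPM and the 3 cKO mice at 339, 375 and 386 CPM. With the 2 mice of fewer than 20 cells, in unscaled CPM, the conditions overlapped, at 358 to 669 CPM in the control and 312 to 374 CPM in the cKO mice. The log2 fold change was -0.67 ± 0.26 (SE; unadjusted p = 0.0122, edgeR adjusted p = 0.316). When the list genes were kept in the clustering, the closest cluster gave -1.01 (adjusted p = 0.19), and graph clustering gave -1.12 (adjusted p = 0.112). With sums from at least 10 cells it was -0.54 (adjusted p = 0.499), and without control replicate 4 it was -0.47 (adjusted p = 0.516). In the dendritic cell-like cluster, where EYFP was at 4.98 unscaled CPM, the log2 fold change was -0.60 ± 0.27 (unadjusted p = 0.0289, edgeR adjusted p = 0.783), and the conditions overlapped, at 149 to 393 CPM in 4 control and 147 to 251 CPM in 3 cKO mice. Without control replicate 4 it was -0.37 (adjusted p = 0.879). The monocyte-like cluster gave -0.28 ± 0.27 and the macrophage-like cluster -0.20 ± 0.28. The difference between these effects was 0.074 ± 0.39 (edgeR interaction contrast, adjusted p = 1), where 0.00902% of genes passed. That fit had no term for the mouse, although both clusters came from the same mice. With limma-voom and the mouse as a random term, 172 genes were higher and 26 lower of 11088 for this contrast, so the share depends on the method. In the lymphoid-like cluster, in which no EYFP UMI was found, the log2 fold change was 0.38 ± 0.27 (edgeR adjusted p = 0.825). Cluster 6 held 1 control mouse with at least 20 cells, at 854 CPM, and 3 cKO mice at 338, 383 and 402 CPM, so no test was made there.

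Cx3cr1 drives Cre in these mice, and the EYFP transcript marks the same promoter. EYFP stood at 56.1 ± 20.6 CPM in control and 30.2 ± 13.3 CPM in cKO mice (SD, n = 4 each), with a log2 fold change of -1.03 ± 0.33 (edgeR adjusted p = 0.104), and Cx3cr1 gave -1.34 ± 0.53 (adjusted p = 0.176). EYFP was lower in cKO cells of cluster 1 (log2 fold change -1.87, edgeR adjusted p = 0.0184) and of the monocyte-like cluster (-2.32, adjusted p = 0.0149). The level of EYFP was highest in the macrophage-like cluster of 464 cells, where the change did not pass. It was at 173 ± 59.4 CPM there in control and 149 ± 22.6 CPM in cKO mice (SD, n = 3 each). This cluster held 373 control and 91 cKO cells, and the part of these numbers in the change over all cells was not tested. The call in cluster 1 was lost without control replicate 1 or 2 or cKO replicate 7 or 8 (adjusted p up to 0.157), with DESeq2 (adjusted p = 0.0606), with limma-voom (adjusted p = 0.0693) and with sums from at least 10 cells (adjusted p = 0.0701). It was also lost when the list genes were kept in the clustering (-0.55, adjusted p = 0.883) and with graph clustering (-1.24, adjusted p = 0.746). The call in the monocyte-like cluster was lost without control replicate 1 or 2 or cKO replicate 6 or 7 (adjusted p up to 0.264), and DESeq2 gave no adjusted p there. In cells with a UMI of EYFP or Cx3cr1, Slc3a2 was at 365, 314, 318 and 481 unscaled CPM in the control mice and at 284, 373, 220 and 283 unscaled CPM in the cKO mice. These cells numbered 16 to 184 per control and 17 to 50 per cKO mouse. The groups overlapped, and the difference of -79.7 CPM had a p of 0.171 (two-sided exact permutation test over 70 arrangements). In the cells with neither UMI the difference was -2.97 CPM (exact permutation p = 1). EYFP was found in 4.96% to 24.4% of the cells of a mouse, and a cell without a UMI of either gene may still have used the promoter.

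Of the 9 members 1 passed the threshold over all cells, against a background of 4.48% of 11387 genes, 2.99% higher and 1.48% lower. With library totals in place of TMM factors the median of all genes moved from -0.03 to -0.13, and the calls split into 270 higher and 261 lower in place of 341 and 169. The log2 fold change was above 0 in 9 of 9 members with TMM factors, with a median of 0.41 against -0.03 over all genes, and that of Slc3a2 and Slc1a5 turned below 0 with library totals.

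The light chains showed different patterns. Slc7a8 encodes LAT2, an exchanger of neutral amino acids of broad range (chr14:54722209-54781946, minus strand). It was at 7.67, 6.68, 10.2 and 7.73 CPM in control replicates 1 to 4 and at 28.5, 14.4, 21.1 and 12.01 CPM in cKO replicates 5 to 8. Every cKO mouse was above every control mouse, which held in this direction for 5.85% of all genes tested, and in the other direction for 6.11%. The counts behind these levels were low, 83 UMIs in the control and 113 in the cKO mice. The log2 fold change was 1.20 ± 0.29 (SE; edgeR adjusted p = 0.0376). The call was lost without control replicate 1, 2 or 4 and without cKO replicate 5 or 7 (log2 fold change 1.07 to 1.21, adjusted p up to 0.148), and also without both libraries under 100 cells (1.12, adjusted p = 0.0545).

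Without the dendritic cell-like, lymphoid-like and stromal-like clusters the log2 fold change of Slc7a8 was 0.45 and did not pass (edgeR adjusted p = 0.444). The dendritic cell-like cluster, where Slc7a8 was low at 2.88 ± 3.89 CPM (SD, n = 7), held 434 of the 1863 control and 93 of the 1350 cKO cells. The clusters were built from genes that themselves differed between the conditions, so these numbers are given as a description. The 15 dendritic cell markers, none of them at 0, summed to 2586 to 3312 CPM in the control and 1753 to 2203 CPM in the cKO mice. No fit left out the dendritic cell-like cluster alone, and the part of these cells in the change of Slc7a8 was not tested.

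Within clusters Slc7a8 did not pass the threshold. In the monocyte-like cluster it was at 0 in the 3 control mice and at 11.0, 8.50 and 11.0 CPM in the 3 cKO mice. Over all monocyte-like cells these were 1 control UMI and 16 cKO UMIs, a ratio of 5.08 with a 95% counting interval of 0.789 to 213, which covers counting error only. The edgeR adjusted p was 0.320. In the macrophage-like cluster Slc7a8 was at 16.5, 18.5 and 25.8 CPM in the control and at 27.8, 11.8 and 14.3 CPM in the cKO mice, and the conditions overlapped. Against the monocyte-like cluster Slc7a8 was higher by 1.76 ± 0.48 in the macrophage-like cluster (SE; edgeR adjusted p = 0.00407) and by 1.77 ± 0.45 in cluster 1 (adjusted p = 0.00399). The call for the macrophage-like cluster was lost without the mouse term (1.35, adjusted p = 0.0550) and with graph clustering (1.37, adjusted p = 0.0535), and the value was 2.64 with the list genes kept in the clustering. With control mice only, whose monocyte-like sums were at 0, the value was 5.97 (edgeR adjusted p = 0.00183). The difference of the effects of the condition, macrophage-like minus monocyte-like, was -4.93 ± 1.78 and did not pass (SE; edgeR interaction contrast, adjusted p = 0.497).

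**Figure D3:**
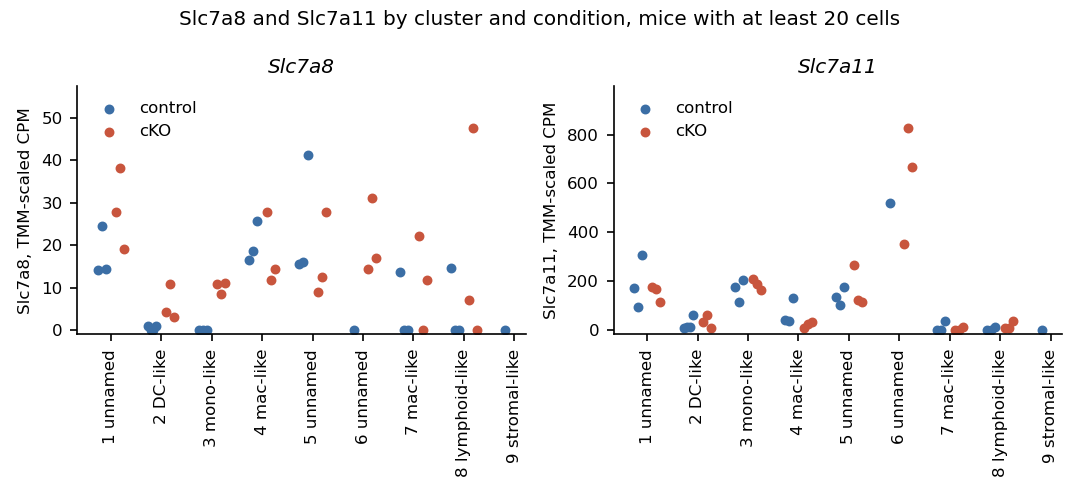
Slc7a8 (left) and Slc7a11 (right) in TMM-scaled CPM for each mouse and cluster with at least 20 cells, control and cKO side by side. Slc7a8 is at 0 in the 3 control mice of the monocyte-like cluster and at 8.50 to 11.0 CPM in the 3 cKO mice, and Slc7a11 is highest in cluster 6, at 352 to 827 CPM.

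Slc7a11 encodes xCT, which takes up cystine for glutamate and so supplies cysteine for glutathione (chr3:49892526-50443614, minus strand). It was at 62.1, 30.5, 88.5 and 151 CPM in the control mice and at 106, 157, 308 and 145 CPM in the cKO mice. The highest control mouse, replicate 4, reached the level of the cKO mice, and the log2 fold change of 1.14 ± 0.43 did not pass (SE; edgeR adjusted p = 0.155). Without control replicate 4 it was 1.68 and passed (adjusted p = 0.0273), and without cKO replicate 7 it was 0.75 (adjusted p = 0.441). Without the dendritic cell-like, lymphoid-like and stromal-like clusters it was 0.64 (adjusted p = 0.406).

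Among clusters, Slc7a11 was at 592 ± 203 CPM in cluster 6 (SD, n = 4), 176 ± 35.4 CPM among the monocyte-like cells and 171 ± 73.8 CPM in cluster 1, and cluster 5 followed with 154 ± 61.0 CPM (n = 6 each). It was at 46.2 ± 43.6 CPM in the macrophage-like, 28.5 ± 23.0 CPM in the dendritic cell-like, 10.4 ± 13.2 CPM in the lymphoid-like cluster and 8.48 ± 15.7 CPM in cluster 7. Cluster 6 was above the monocyte-like cluster in 4 of 4 mice and cluster 5 above the macrophage-like cluster in 6 of 6 mice, and the other neighbours had a mean difference within mice below its SD. Against the monocyte-like cluster it was higher in cluster 6 by 1.62 ± 0.24 (SE; edgeR adjusted p = 1.57e-07). It was lower in the macrophage-like cluster, with -1.75 ± 0.27 (adjusted p = 1.41e-07), and in the dendritic cell-like cluster, with -2.72 ± 0.27 (adjusted p = 5.28e-14). Of the 9 members, Slc7a11 and Slc7a8 were the 2 that differed between the macrophage-like and the monocyte-like cluster, in opposite directions, a share near the background of 22.3%. Cluster 6, where Slc7a11 was highest, held 39 control and 229 cKO cells, and the part of this difference in the change over all cells was not tested. Within the 7 tested clusters Slc7a11 did not pass, and its log2 fold change was -1.34 in the macrophage-like and 0.16 in the monocyte-like cluster (unadjusted p = 0.0502 and 0.711).

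The promoter of Slc7a11 is shown because the level of this gene ranged from 46.2 to 592 CPM between the macrophage-like cluster and cluster 6 and because its window holds the motif TGATGNAA, which ATF4 is known to bind in dimers with C/EBP proteins. The window is chr3:50443564-50443863 on the minus strand (GRCm38.p6, RefSeq), from 250 bases before the transcript start to 50 bases after it, and capitals mark the matches on either strand.
Slc7a11 promoter: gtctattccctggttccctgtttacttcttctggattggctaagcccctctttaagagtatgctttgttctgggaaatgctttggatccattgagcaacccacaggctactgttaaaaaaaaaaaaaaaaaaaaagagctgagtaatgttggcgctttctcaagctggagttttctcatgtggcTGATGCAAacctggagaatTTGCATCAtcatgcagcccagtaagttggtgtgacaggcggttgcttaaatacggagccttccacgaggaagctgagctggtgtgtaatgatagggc
The matches begin 66 and 47 bases before the start and point in opposite directions. TGATGNAA was found in 3.97% of 32851 RefSeq promoter windows, and in those of 2 of the 7 members with a window, Slc7a11 and Slc7a7. The AP-1 motif TGACTCA was in 5.20% of all windows and in none of these 7 members, and TGANNNNGC, the core of the antioxidant response element, was in 41.3% of all windows and in 5 of the 7 members. These 7 members have 13 windows, and a member was counted when any of its windows matched, so its count is not on the scale of the share of windows. Matches of different motifs may overlap, and a match is a description of the letters in the window.

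Slc7a7 encodes y+LAT1, which exports arginine and lysine in exchange for neutral amino acids (chr14:54369442-54417780, minus strand). It was at 41.4, 30.8, 22.1 and 39.6 CPM in the control mice and at 34.6, 50.6, 64.6 and 49.4 CPM in the cKO mice. The groups overlapped through cKO replicate 5, and the log2 fold change of 0.56 ± 0.22 did not pass (edgeR adjusted p = 0.171). It was 0.21 when the 3 dendritic cell-like, lymphoid-like and stromal-like clusters were left out. It was at 63.4 ± 8.81 CPM in the macrophage-like, 62.7 ± 17.1 CPM in cluster 1 and 55.9 ± 14.3 CPM in the monocyte-like cluster (SD, n = 6 each). Against the monocyte-like cluster it was lower in the dendritic cell-like, with -1.11 ± 0.26 (SE; adjusted p = 0.000419), and the lymphoid-like cluster, with -2.28 ± 0.43 (adjusted p = 1.21e-05). In cluster 7, where most members were low, Slc7a7 stood at 79.4 ± 57.4 CPM (SD, n = 6) and did not differ from the monocyte-like cluster by the test (adjusted p = 0.377), but this rested on 30 UMIs.

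Slc7a5 encodes LAT1, the exchanger of leucine and other large neutral amino acids that is best known from activated lymphocytes (chr8:121881150-121907694, minus strand). It was close to the limit of detection, with 63 UMIs in the control and 53 in the cKO mice. The control mice were at 6.14, 4.36, 13.6 and 5.16 CPM and the cKO mice at 8.15, 10.0, 9.04 and 5.34 CPM, and the log2 fold change was 0.41 ± 0.36 (edgeR adjusted p = 0.559). Without the dendritic cell-like, lymphoid-like and stromal-like clusters it was 1.02 (adjusted p = 0.334), and without control replicate 2 it was 0.23. The dendritic cell-like cluster held 57 of its UMIs and had 16.0 ± 7.98 CPM (SD, n = 7), above cluster 5, the next in order, in 6 of 6 mice. Against the monocyte-like cluster this was 1.85 ± 0.50 higher (SE; adjusted p = 0.00257). In cluster 7 no UMI of Slc7a5 was found, where a count of 0 allows up to 18.7 CPM in the control and 16.7 CPM in the cKO cells, so a lower level could not be detected at this depth. In the lymphoid-like cluster it had 5 UMIs.

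Slc7a6 encodes y+LAT2, a relative of y+LAT1 (chr8:106168857-106198706, plus strand). It was at 3.58, 6.10, 3.41 and 3.87 CPM in the control and at 4.08, 5.00, 6.89 and 4.89 CPM in the cKO mice, from 49 and 37 UMIs. The groups overlapped, the log2 fold change was 0.31 ± 0.33 (edgeR adjusted p = 0.652), and no cluster differed from the monocyte-like cluster by the test.

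**Figure D4:**
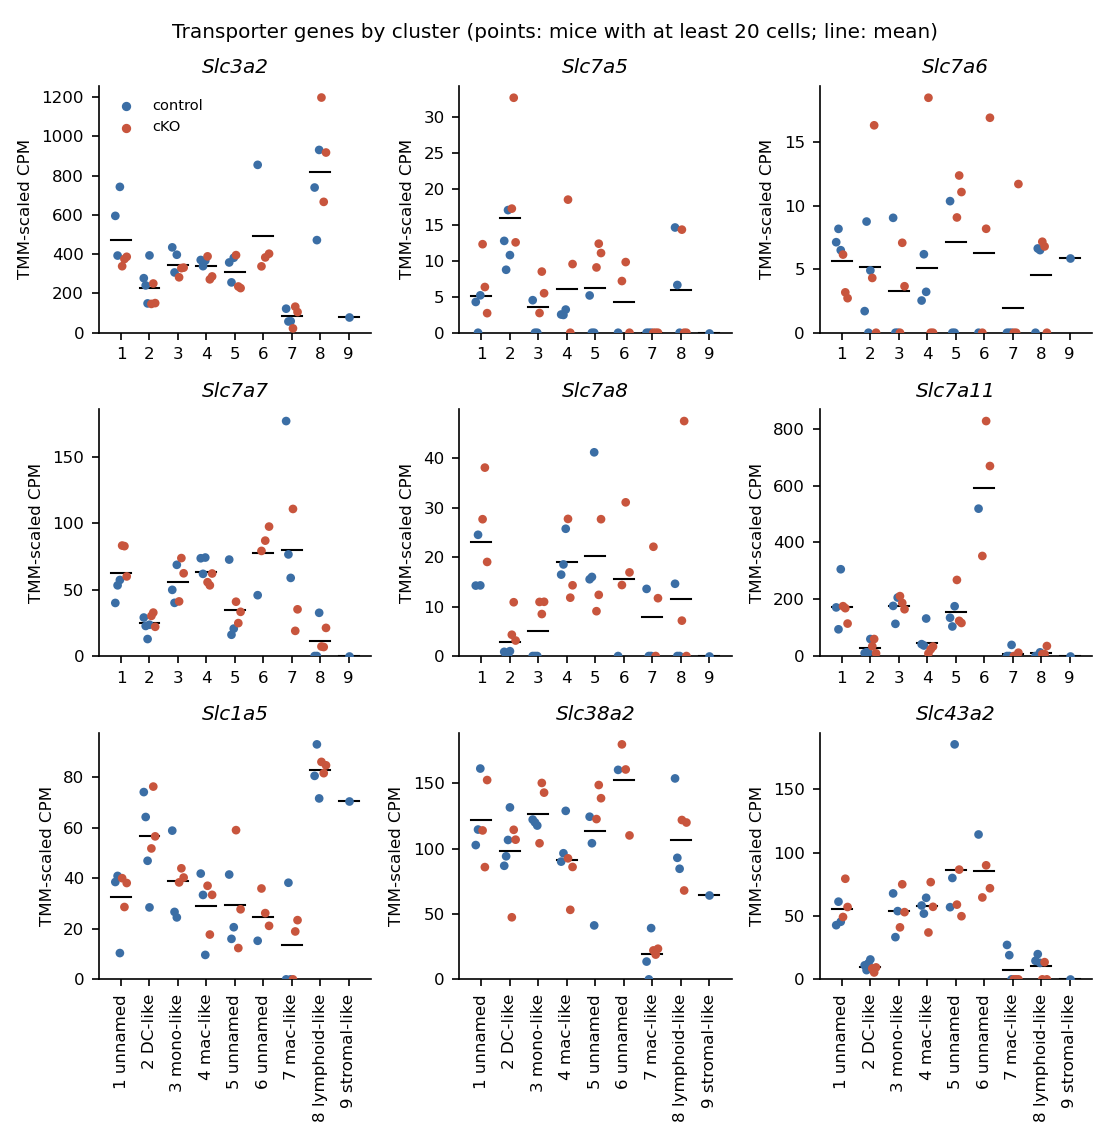
Each of the 9 genes in TMM-scaled CPM for each mouse and cluster with at least 20 cells; points are mice, coloured by condition, and lines are means over mice. Slc3a2 is highest in the lymphoid-like cluster (820 CPM), Slc7a11 in cluster 6 (592 CPM) and Slc7a5 in the dendritic cell-like cluster (16.0 CPM), and Slc43a2 is at 54.1 CPM or more in clusters 1 and 3 to 6 and at 10.2 CPM or less in the other clusters.

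The carriers that need no heavy chain were Slc43a2, Slc1a5 and Slc38a2. Slc43a2 encodes LAT4, a uniporter of leucine, isoleucine, valine, methionine and phenylalanine (chr11:75531694-75577575, plus strand). It was at 31.2, 25.0, 22.1 and 38.3 CPM in the control and at 40.8, 36.9, 67.1 and 40.5 CPM in the cKO mice. The groups overlapped at 1 mouse each, and the log2 fold change of 0.65 ± 0.23 did not pass (SE; edgeR adjusted p = 0.143). It was 0.38 without cKO replicate 7, and 0.21 without the dendritic cell-like, lymphoid-like and stromal-like clusters. Slc43a2 was at 54.1 to 86.4 CPM on average in the monocyte-like cluster, the larger macrophage-like cluster and clusters 1, 5 and 6. In cluster 7, the smaller macrophage-like cluster, it stood at 7.72 ± 12.2 CPM (SD, n = 6), from 3 UMIs. Against the monocyte-like cluster it was lower in the dendritic cell-like cluster, with -2.40 ± 0.28 (adjusted p = 2.62e-11), and in the lymphoid-like cluster, with -2.41 ± 0.41 (adjusted p = 1.53e-06). It was also lower in cluster 7, with -2.69 ± 0.62 (SE; edgeR adjusted p = 0.000594).

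Slc1a5 encodes ASCT2, a sodium-dependent exchanger that takes up glutamine (chr7:16781340-16798274, plus strand). It was at 49.1, 46.2, 39.2 and 20.6 CPM in the control and at 38.7, 46.2, 37.4 and 38.3 CPM in the cKO mice, with a log2 fold change of 0.049 ± 0.25 (SE; edgeR adjusted p = 0.946). The lymphoid-like cluster had 82.9 ± 7.07 CPM (SD, n = 6), from 71.6 to 92.9 CPM, and the dendritic cell-like cluster 56.9 ± 16.6 CPM (n = 7). Both were higher than the monocyte-like cluster at 38.8 ± 12.5 CPM (n = 6), by 1.08 ± 0.25 (SE; adjusted p = 0.000418) and 0.55 ± 0.22 (adjusted p = 0.0489).

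Slc38a2 encodes SNAT2, a sodium-coupled carrier of small neutral amino acids that is induced when amino acids are short (chr15:96687392-96699730, minus strand). It was at 84.9, 85.1, 145 and 120 CPM in the control and at 132, 107, 123 and 116 CPM in the cKO mice, with a log2 fold change of 0.16 ± 0.19 (SE; edgeR adjusted p = 0.687). It ranged from 64.7 CPM in the 1 stromal-like sum to 153 CPM in cluster 6, and was lower in cluster 7 at 19.5 ± 12.8 CPM (SD, n = 6; adjusted p = 6.57e-07 against the monocyte-like cluster). The stromal-like sum held 11 UMIs of Slc38a2, and all stromal-like cells together gave 113 unscaled CPM from 48 UMIs. Like Slc3a2, Slc38a2 was low in cluster 7, where its value rested on 7 UMIs. The part of the low UMI count per cell in these levels was not tested. In cluster 5 Slc38a2 was at 113 ± 38.4 CPM (SD, n = 6). Neither Slc38a2 nor Slc3a2 differed there from the monocyte-like cluster by the test (edgeR adjusted p = 0.757 and 0.653). Among the 5 other members with a mean of at least 20 CPM, Slc38a2 was the most like Slc3a2 over the 48 sums of a mouse and a cluster, with Pearson r = 0.64 of log2(CPM + 10).

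The 5 genes most like Slc3a2 over these 48 sums, out of 4730 genes with a mean of at least 20 CPM, were Vps37b (r = 0.81), Vgll4 (r = 0.80), Edem1 (r = 0.79), H2-T23 (r = 0.77) and Stx5a (r = 0.77). The sums share libraries, with none from cKO replicate 5, and differ in depth, so these values describe likeness only.

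Within clusters 0 of 63 tests of a member passed the edgeR threshold in 7 clusters, 5 had an unadjusted p under 0.05, and DESeq2 and limma-voom gave 0 calls. These 5 were Slc3a2 in cluster 1 and the dendritic cell-like cluster, Slc7a8 in the monocyte-like and dendritic cell-like clusters, and Slc43a2 in cluster 7. Slc7a8 had 2 control and 5 cKO UMIs in the dendritic cell-like cluster, and Slc43a2 had 3 and 0 in cluster 7, so both were near the floor. The share of all genes with an unadjusted p under 0.05 was not counted, so such counts, here and for the lists below, have no background.

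Of 105 tested genes in the lists of other carriers, the ATF4 response, amino acid sensing, branched-chain amino acid breakdown and CD98hc binding partners, 4 passed over all cells and were higher in the cKO mice. This is 3.81%, against the background of 4.48%. Slc15a3, a lysosomal transporter of peptides and histidine, was at 96.2 ± 16.3 CPM in the control and 198 ± 38.7 CPM in the cKO mice (SD, n = 4 each). All cKO mice were above the control mice for Slc15a3, which held in this direction for 5.85% of all genes tested. Its log2 fold change was 1.04 ± 0.19 (SE; edgeR adjusted p = 0.011), and 0.56 without the dendritic cell-like, lymphoid-like and stromal-like clusters (adjusted p = 0.110). It was 1 of 17 tested intracellular carriers to pass, and the other 16 did not. Of 7 tested further plasma membrane carriers 0 passed by edgeR or by DESeq2 and 2 had an unadjusted p under 0.05, Slc16a10 (0.83 on the log2 scale) and Slc7a4 (-1.70).

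Of 20 tested genes of the ATF4 response 2 passed, against a background of 4.48% of all genes, and 6 had an unadjusted p under 0.05. Of these, Nupr1, Cebpb, Ddit4, Cebpg and Ddit3 were higher in the cKO mice. Psph was lower and did not pass (log2 fold change -0.95, edgeR adjusted p = 0.0745). All cKO mice were below all control mice for Psph, which held in this direction for 6.11% of all genes tested. Nupr1, a stress-induced chromatin protein, was at 115 ± 26.9 CPM in the control and 271 ± 76.7 CPM in the cKO mice (SD, n = 4 each), with a log2 fold change of 1.25 ± 0.23 (SE; edgeR adjusted p = 0.0124). Cebpb, a transcription factor that also acts in myeloid differentiation, was at 35.2 ± 21.1 CPM and 83.5 ± 28.4 CPM (SD), with 1.36 ± 0.33 (SE; adjusted p = 0.0391), and this call was lost without 7 of the 8 mice in turn, all but control replicate 3 (adjusted p up to 0.149). It was also lost with Scrublet calls left out (adjusted p = 0.0563) and without the dendritic cell-like, lymphoid-like and stromal-like clusters (0.80, adjusted p = 0.247). The median of the list was 0.24 against -0.03 over all genes. Within clusters 23 of 140 tests of this list had an unadjusted p under 0.05 and 2 passed, both of Atf3, an early stress factor. Atf3 was lower in cKO cells of cluster 1 (log2 fold change -1.27, edgeR adjusted p = 0.00504) and of the macrophage-like cluster (-1.20, adjusted p = 0.0398). The call in cluster 1 was lost without cKO replicate 7 (-1.01, adjusted p = 0.200), with sums from at least 10 cells (-0.98, adjusted p = 0.0777), with the list genes kept in the clustering (-0.91) and with graph clustering (-1.02). The call in the macrophage-like cluster was lost without control replicate 1 or 2 or cKO replicate 6, 7 or 8 (adjusted p up to 0.573) with DESeq2 (adjusted p = 0.0791) and with sums from at least 10 cells (-0.72, adjusted p = 0.524).

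Lgals3, galectin-3, a lectin that binds CD98, was the 1 of 4 tested binding partners to pass, against a background of 4.48% of all genes. It was at 1123 ± 128 CPM in the control and 1770 ± 228 CPM in the cKO mice (SD, n = 4 each), with a log2 fold change of 0.65 ± 0.14 (SE; edgeR adjusted p = 0.0257). This call was lost without control replicate 1 or 2 or cKO replicate 6, 7 or 8 (adjusted p up to 0.0798) and with Scrublet calls left out (0.60, adjusted p = 0.0806). Of 32 tested genes of amino acid sensing by mTORC1 0 passed by edgeR or DESeq2, and 5 had an unadjusted p under 0.05. Of 25 tested genes of branched-chain amino acid breakdown 0 passed by edgeR or DESeq2, and 2 had an unadjusted p under 0.05. The edgeR background of passing genes was 4.48% for both lists, whose medians were 0.16 and -0.08.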

How the data were processed

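Mouse colonic lamina propria cells were profiled with the 10× Single Cell 3′ v2 kit. The authors aligned reads with Cell Ranger and STAR 2.5.3a to mm10 plus EYFP and merged the libraries without down-sampling. The deposited values are UMI counts for each gene in each cell. Gene symbols were joined to 16800 of 16889 Ensembl identifiers. Cells with log10 UMIs of at least 2.8, log10 genes of at least 2.6, at most 5% mitochondrial UMIs and no hemoglobin UMI were kept, 3213 of 5947 barcodes. Scrublet (scanpy 1.11.5) calls stayed in. Cells were clustered (scran 1.30.0, R 4.3.3, Ward, 9 clusters) without 117 list genes. A cluster was named when at least 2 markers of a class were among its 10 leading genes, a number set after the clusters were seen. Counts were summed per mouse, and per mouse and cluster from 20 cells (48 sums), and tested with edgeR 4.0.16 (quasi-likelihood, TMM, CPM above 1 in at least 3 sums and detection in at least 20 cells, Benjamini-Hochberg over all genes, threshold 0.05). Clusters were compared with a term for the mouse, and conditions within clusters in 1 fit over all sums without such a term. In the main clustering cKO replicate 5 had fewer than 20 cells in every cluster and entered no cluster sum. Leaving it out therefore repeats the main fit within and between clusters. Control replicate 3 entered in the dendritic cell-like cluster only. DESeq2 1.42.0 and limma 3.58.1 were alternatives. The procedure was tested on simulated data.

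The text names the 9 members, other list genes past the threshold over all cells and the 5 genes most like Slc3a2; Atf3 and list genes with an unadjusted p only were named after their values were seen. The members and lists were chosen with earlier results of these data known. Replicates were separate mice. A level's precision is limited by the UMIs given beside it. The study's Cell Ranger summaries list reads antisense to a gene apart from those counted, so counting used strand. Slc7a11 (with Gm37692 and Gm37498) and Slc43a2 (with Mir3971) overlap genes on their own strand, where reads could be split. Positions and exons came from GENCODE vM21 (GRCm38), promoter windows from RefSeq. Windows of Slc7a5 and Slc1a5 were not analysed here. The alternatives appear in the closing section.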

Additional observations from a re-analysis of the deposited data

Results flagged for a closer look

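Of 29 groups of 4 mice, 3 held a mouse far from the others, its gap to the nearest mouse taking most of the range of the group, and chance alone flags about 1 in 20 groups. Slc43a2 over all cells was at 67.1 CPM in cKO replicate 7, with the next cKO mouse at 40.8 CPM. Slc1a5 over all cells was at 46.2 CPM in cKO replicate 6, with the next cKO mouse at 38.7 CPM. Slc7a11 in the dendritic cell-like cluster was at 59.9 CPM in control replicate 4, with the next control mouse at 13.1 CPM. In that cluster cKO replicate 7 reached the same level. Whether these mice or their libraries set these values was not tested.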

How the results depend on the processing

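No paired analysis was possible because the replicate numbers run from 1 to 8 and are not shared between the conditions. The count of members past the threshold over all cells was 1, and 0 without the dendritic cell-like, lymphoid-like and stromal-like clusters and 0 without both libraries under 100 cells (an alternative added after seeing the data, as were library totals), and 0 to 1 without 1 mouse at a time. Over all cells the log2 fold change of Slc3a2 was -0.070 with Scrublet calls left out, -0.36 without those 3 clusters, -0.079 with library totals and -0.047 without the small libraries, and -0.10 to 0.24 without 1 mouse at a time. Slc1a5 was -0.054 with library totals and -0.20 to 0.22 without 1 mouse. Within clusters the count stayed at 0 in every setting run. Slc3a2 was 0.068 in the monocyte-like cluster when all genes were clustered, -0.019 with limma-voom and -0.092 with graph clustering in cluster 7, and without 1 mouse ran from -0.52 to 0.033 in cluster 5 and from -0.17 to 0.68 in cluster 7. The interaction of Slc3a2 was -0.10 with at least 10 cells per sum and -0.16 to 0.19 without 1 mouse; neither graph clustering nor clustering with all genes gave a value, since the macrophage-like cells could not be tested there. Between the macrophage-like and monocyte-like clusters the count of 2 members was 1 without the mouse term and 1 with graph clustering, Slc7a8 missing the threshold in both (1.35 and 1.37), and 2 to 3 without 1 mouse. Slc3a2 was 0.12 with DESeq2, 0.21 with all genes clustered and 0.042 with graph clustering, and -0.16 to 0.054 without 1 mouse. Slc7a5 was -0.27 without the mouse term, -0.36 with all genes clustered and -0.49 with graph clustering, Slc43a2 was -0.091 and -0.10 in the latter 2, and Slc7a6 was -0.075 with all genes clustered. Without 1 mouse Slc7a5 ran from -0.26 to 0.74 and Slc7a6 from -0.54 to 0.57. The difference of Slc3a2 in cells with a UMI of EYFP or Cx3cr1 was -78.5 CPM with EYFP alone, -91.9 CPM without doublet calls (exact permutation p = 0.114 for both) and -107 to -42.5 CPM without 1 mouse. The causes were not tested. Depth limits Slc7a5, Slc7a6 and Slc7a8 most, which had the fewest UMIs of the members.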
